A study of Mus musculus with 2 samples.

Results

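Hemogenic endothelium (HE) was examined as all cells of the class HE in the deposited annotation, which were 99 of 8405 cells. Of these, 59 came from the 4451 cells of a wild-type (WT) library and 40 from the 3954 cells of an SP3-null library (labelled SP3KO). Both libraries held endothelial cells of mouse embryos at embryonic day 10.5, dissected around the dorsal aorta and sorted as Ter119- CD41lo/- CD31+ CD144+ ESAM+, and both genotypes came from the same kind of mating, Sp3+/- females of mixed C57BL6 and B6129SF1/J background with Sp3+/- C57BL6 males that carried the Sp3tm1Sus allele. The allele is carried in the germline, so the loss of SP3 was not limited to endothelium. Cells of several embryos were pooled by genotype, and 1 library was made per genotype with the 10x Chromium 3' kit, so an effect of genotype cannot be told apart from a difference between the pools or between the libraries. No test of a difference was possible. Every interval given here is a 95% interval of counting error only, for counts of unique molecular identifiers (UMIs) or of cells, and does not cover the spread between embryos.

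Hemogenic endothelium is the specialised endothelium of the embryonic arteries from which blood stem and progenitor cells arise, a process called the endothelial to hematopoietic transition. Arterial endothelial cells first pass through a stage called pre-HE, then switch on the transcription factor Runx1 and become HE, and HE cells round up, leave the vessel wall and join the intra-arterial clusters (IAC) that protrude into the lumen. Runx1 is required for that transition, and its target Gfi1 helps to silence endothelial genes while it proceeds.

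The classes were assigned by the study from the expression of the same cells, by projecting each cell on a published map of this transition and taking the class of its nearest reference cells. A comparison of HE with pre-HE or IAC is therefore a description of what the class label gathered, not a test. HE cells were well covered. They held a median of 17656 UMIs in WT (range 3663 to 86707) and 21366 in SP3-null (2296 to 55171), against 9257.5 and 9163 in pre-HE and 31009 and 30343 in IAC, so UMI totals of the cells increased along the same order as the classes. The 59 WT HE cells summed to 1124998 UMIs and the 40 SP3-null HE cells to 895615 UMIs, and levels are given as counts per 1000000 UMIs (CPM) of these sums. Median mitochondrial content was 4.99% of UMIs in WT HE and 4.48% in SP3-null HE, with 9 and 3 cells above 10%. The libraries shared 5 cell barcodes, of which 1 belonged to an HE cell and 0 were HE in both.

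Most, but not all, HE cells carried the endothelial transcripts that the label implies, which other endothelial classes carry too. The summed level of 25 endothelial identity genes was at least 1914 CPM in 56 of the 59 WT cells and at least 2238 CPM in 36 of the 40 SP3-null cells. In the other 7 cells, 3 WT and 4 SP3-null, it lay between 0 and 166.88 CPM. These 7 cells held 17656 to 50304 UMIs and were not shallow. None of them had a UMI of Pecam1 or Esam, the genes for the sorted surface proteins CD31 and ESAM, nor of Gfi1 or Neurl3. Other markers were not all absent. Adgrg1 had 1, 1 and 0 UMIs in the WT cells and 0, 1, 7 and 6 in the SP3-null cells. Runx1 had 0, 0 and 1 UMIs in WT and 0, 0, 1 and 0 in SP3-null. Cdh5, the gene for the sorted CD144, had 0, 0 and 1 UMIs and 0, 1, 0 and 0 UMIs. The 7 cells also carried neural genes. Sox2, a transcription factor of neural progenitors, had 11, 15 and 0 UMIs in the WT cells and 0, 7, 36 and 26 in the SP3-null cells. Tubb3, the neuronal beta tubulin, had 0, 0 and 80 UMIs in WT and 42, 0, 4 and 15 in SP3-null. Elavl4, a neuronal RNA-binding protein, had 2, 1 and 67 UMIs and 29, 0, 11 and 8 UMIs in the same order. The 7 cells made up 5.08% of WT HE (1.06% to 14.1%) and 10% of SP3-null HE (2.79% to 23.7%), whereas 0 of the 136 WT and 0 of the 92 SP3-null pre-HE cells had an endothelial sum under 500 CPM. Of IAC cells, 7 of 128 in WT (5.47%) and 11 of 107 in SP3-null (10.3%) did, as did 11 and 16 cells of the other endothelium. Where leaving out the 7 cells moved the ratio of a named gene past 2-fold, or back within it, both values or the count of genes remaining are given in most cases.

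The label was checked against Runx1, Gfi1, Neurl3 and Adgrg1. Runx1 encodes the DNA-binding factor at the head of the transition and Gfi1 a transcriptional repressor. Neurl3 encodes an E3 ubiquitin ligase, and Adgrg1 encodes the adhesion receptor GPR56 of blood stem and progenitor cells. Their promoter windows are shown because the levels of the 4 genes separated HE from pre-HE together. RefSeq promoter windows on GRCm38.p6, from 250 bases before to 50 bases after an annotated start, gave 7 windows for the 4 genes. Each was searched on both strands, that is also for the reverse complement, for 4 short words. Factors of the RUNX family bind the first word, TGTGGT. Factors of the ETS family bind the second, CCGGAA. The third, bound by GATA factors, was AGATAA. The GC box, bound by SP factors, was searched as GGGCGG. The 4 windows that held a RUNX, ETS or GATA word are printed from 5′ to 3′ on the strand of the gene, with every such word in capitals. They lie at chr16:92697280-92697579 (minus strand, an internal start of Runx1), chr16:92826025-92826324 (minus strand, the upstream start of Runx1), chr5:107724294-107724593 (minus strand, Gfi1) and chr1:36273376-36273675 (minus strand, Neurl3).
Runx1, internal start: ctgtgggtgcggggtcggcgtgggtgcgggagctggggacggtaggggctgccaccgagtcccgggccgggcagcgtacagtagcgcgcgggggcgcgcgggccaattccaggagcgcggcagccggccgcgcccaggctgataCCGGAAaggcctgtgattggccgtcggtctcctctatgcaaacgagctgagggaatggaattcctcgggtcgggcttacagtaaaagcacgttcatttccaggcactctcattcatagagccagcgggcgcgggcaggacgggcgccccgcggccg
Runx1, upstream start: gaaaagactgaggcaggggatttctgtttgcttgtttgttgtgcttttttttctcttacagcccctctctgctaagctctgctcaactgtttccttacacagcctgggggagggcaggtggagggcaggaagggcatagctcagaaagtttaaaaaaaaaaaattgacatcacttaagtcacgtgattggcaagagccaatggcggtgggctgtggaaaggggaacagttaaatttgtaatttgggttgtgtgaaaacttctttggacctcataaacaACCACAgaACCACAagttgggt
Gfi1: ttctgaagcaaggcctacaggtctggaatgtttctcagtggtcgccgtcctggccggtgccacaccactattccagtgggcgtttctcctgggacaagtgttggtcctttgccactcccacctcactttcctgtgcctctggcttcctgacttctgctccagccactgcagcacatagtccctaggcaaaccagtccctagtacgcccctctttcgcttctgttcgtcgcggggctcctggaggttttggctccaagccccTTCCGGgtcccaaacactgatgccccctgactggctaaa
Neurl3: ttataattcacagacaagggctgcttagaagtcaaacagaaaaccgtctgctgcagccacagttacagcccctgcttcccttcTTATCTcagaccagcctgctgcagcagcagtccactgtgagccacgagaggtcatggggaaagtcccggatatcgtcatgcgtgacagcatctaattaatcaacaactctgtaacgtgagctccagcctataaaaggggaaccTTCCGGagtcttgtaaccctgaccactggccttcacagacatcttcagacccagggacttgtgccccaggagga

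In these windows the ETS word began at base 145 of the internal Runx1 window, base 262 of the Gfi1 window and base 227 of the Neurl3 window. RUNX words began at bases 279 and 287 of the upstream Runx1 window, just after the start, and the Neurl3 window held a GATA word at base 84. The second Gfi1 window (chr5:107725756-107726055, minus strand) and both Adgrg1 windows (chr8:94976859-94977158 and chr8:94984149-94984448, plus strand) held none of the words, and a GC box was in 0 of the 7 windows. Among all 32851 windows of the same length, 16.8% held a RUNX word, 14.9% an ETS word, 11.2% a GATA word and 35.7% a GC box. A match describes the letters of these windows and is not a measured binding site.

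All 4 markers were far higher in HE than in pre-HE in both libraries. Runx1 was at 3.90 CPM in WT pre-HE, 356 CPM (322 to 392) in WT HE and 283 CPM in WT IAC, and at 2.24, 242 (211 to 277) and 289 CPM in SP3-null cells. It had a UMI in 44 of 59 WT HE cells (74.6%) and 28 of 40 SP3-null HE cells (70%), against 2.94% and 2.17% of pre-HE cells and 99.2% and 96.3% of IAC cells. Venous endothelium of low Wnt activity, which should lack Runx1, showed a Runx1 UMI in 26 of 868 and 16 of 676 cells at median depths of 14280.5 and 14460.5 UMIs, deeper than the 9257.5 and 9163 UMIs of pre-HE. At an even depth of 5000 UMIs per cell, pre-HE gave 2.94% (3 of 102 cells) and 1.35% (1 of 74), and these venous cells 0.689% (5 of 726) and 0.51% (3 of 588). The source of these UMIs was not tested. Over HE cells the Runx1 level had a median of 238 CPM and a maximum of 1817 CPM in WT, and 188 and 889 CPM in SP3-null, with 0 UMIs in the remaining 15 and 12 cells. At the same even depth, the share of HE cells with a Runx1 UMI was 60% in WT and 52.8% in SP3-null.

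Gfi1 stood apart from the other markers because it was more than 2-fold higher in HE than on either side. Its level was 2.60 CPM in pre-HE, 72.9 CPM (58.0 to 90.5) in HE and 27.0 CPM in IAC of the WT library, and 1.12, 72.6 (56.0 to 92.5) and 29.6 CPM in SP3-null cells. The log2 ratio of HE over IAC was 1.43 (1.00 to 1.85) in WT and 1.30 (0.83 to 1.76) in SP3-null. Gfi1 was seen in 31 WT and 21 SP3-null HE cells, with 0 of 868 and 0 of 676 low-Wnt venous cells. Neurl3 was at 74.7 and 88.2 CPM in WT and SP3-null HE, close to its 70.9 and 71.5 CPM in IAC, and Adgrg1 was at 122 and 126 CPM, below its 158 and 160 CPM in IAC. Ptprc, which encodes the pan-leukocyte surface protein CD45, had a UMI in 0 of 59 WT HE cells, where 3 counts would be 5.08% and the exact upper limit is 6.06%, and in 3 of 40 SP3-null HE cells, but in 62.5% and 68.2% of IAC cells. Most HE cells thus had Runx1 UMIs, and few or none had Ptprc UMIs.

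**Figure D1:**
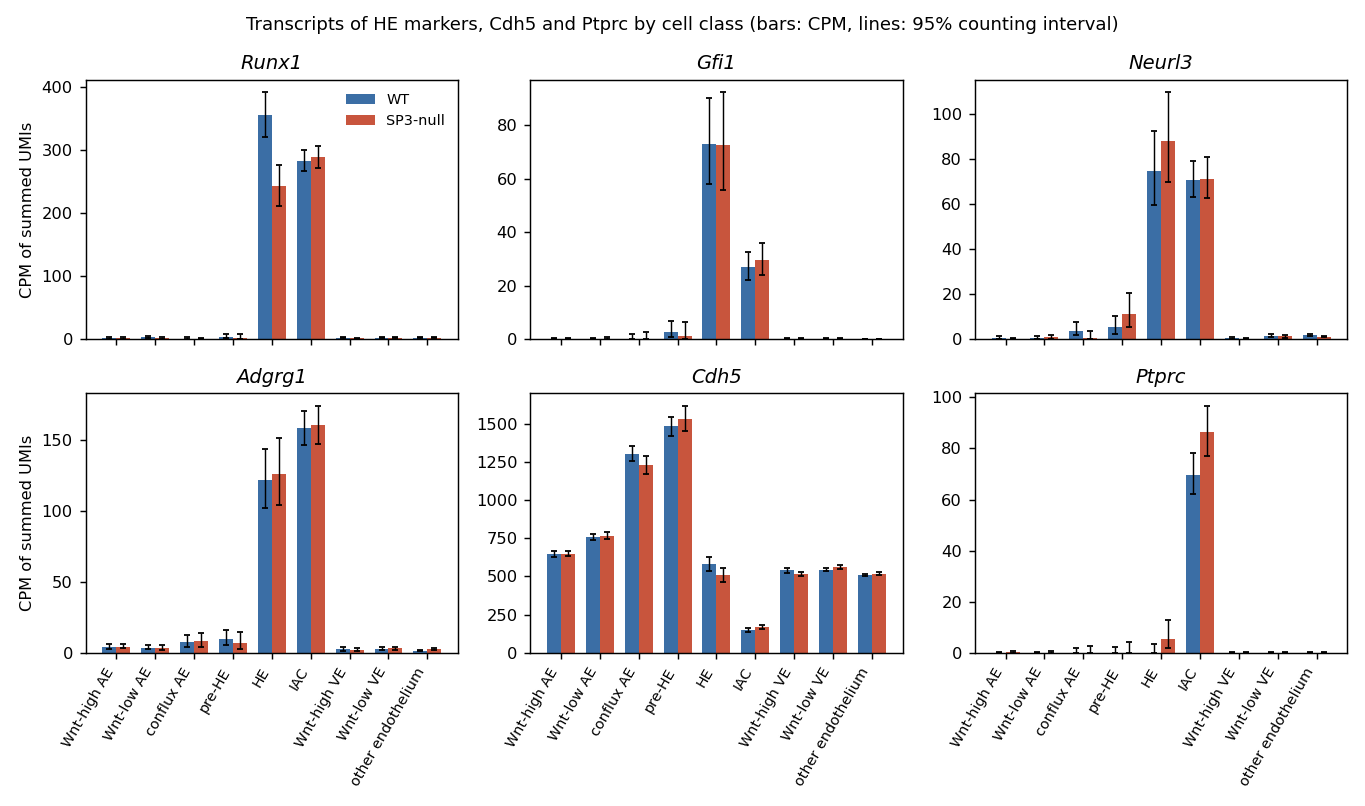
Levels of the 4 HE markers, the endothelial cadherin gene Cdh5 and the leukocyte gene Ptprc in the 9 classes of both libraries, as CPM of the summed UMIs of each class (bars) with 95% counting intervals (lines). Gfi1 peaks in HE at 72.9 CPM in WT and 72.6 CPM in SP3-null, Runx1 is at 356 and 242 CPM in HE and near 0 in endothelial classes, and Cdh5 is intermediate in HE at 582 and 509 CPM.

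HE cells still expressed endothelial genes alongside these markers. Cdh5, which encodes the VE-cadherin of endothelial junctions, was at 1483 CPM in WT pre-HE, 582 CPM (538 to 629) in HE and 151 CPM in IAC, and at 1534, 509 (463 to 558) and 171 CPM in SP3-null. It had UMIs in 57 of 59 and 35 of 40 HE cells. Runx1 and Cdh5 were seen in the same cell in 74.6% of WT and 67.5% of SP3-null HE cells, that is in all 44 WT cells with a Runx1 UMI and in 27 of the 28 SP3-null ones. Pecam1, which encodes the adhesion protein CD31, went from 580 to 227 to 68.5 CPM across WT pre-HE, HE and IAC, and from 632 to 217 to 83.2 CPM in SP3-null. Kdr, the receptor for VEGF, had the same order, with 638, 194 and 49.8 CPM in WT and 732, 181 and 24.1 CPM in SP3-null.

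HE against pre-HE addressed what a cell of the arterial wall gains and loses at the Runx1-positive stage. Genes with 20 or more UMIs in the 2 classes combined were measured, and a gene was counted as different when its ratio passed 2-fold. By that rule, 6.31% of 8685 genes were higher and 11.2% were lower in WT HE than in WT pre-HE, and 7.61% of 7856 genes were higher and 12.2% lower in SP3-null HE. Of 7745 genes measured in both libraries, 235 were higher in both, 517 were lower in both and 6 passed the fold in opposite directions. The median log2 ratio of all genes was -0.04 in WT and -0.01 in SP3-null.

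Several transcription factors of blood were higher in HE than in pre-HE. Of the 21 measured in WT, 8 were more than 2-fold higher in HE than in pre-HE and 0 lower, and of 20 measured in SP3-null, 8 were higher and 1, Mecom, was lower at -1.13, or -0.89 without the 7 cells. The list's median log2 ratio was 0.69 in WT and 0.46 in SP3-null. Besides Runx1 and Gfi1, the higher factors in both libraries were Myb, Spi1, Hlf, Ikzf2 and Hoxa9. Myb, needed for definitive blood formation, was at 0.65 CPM in pre-HE and 92.4 CPM (75.5 to 112) in HE of the WT library, with 210 CPM in IAC, and at 1.12, 106 (85.8 to 130) and 200 CPM in SP3-null, and its log2 ratios of HE over pre-HE were 7.15 (4.64 to 12.47) and 6.56 (4.05 to 11.88), each against 1 UMI in pre-HE. Spi1, the myeloid and lymphoid factor PU.1, was at 3.90, 93.3 and 164 CPM across WT pre-HE, HE and IAC and at 2.24, 107 and 181 CPM in SP3-null. Hlf, which marks blood stem cells, was at 3.90, 64.0 and 126 CPM and at 3.37, 61.4 and 124 CPM. Each of these 3 factors was thus at its highest in IAC and had come a large part of the way in HE.

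Other blood factors did not follow Runx1. Gata2, a factor already present in hemogenic precursors, was at 57.3 CPM in pre-HE, 92.4 CPM in HE and 40.3 CPM in IAC of the WT library, and at 84.2, 87.1 and 43.0 CPM in SP3-null. Tal1, Lyl1, Fli1 and Erg, factors shared by blood and endothelium, stayed within 2-fold of pre-HE in both libraries, with log2 ratios of 0.57, -0.05, -0.43 and -0.25 in WT and 0.18, -0.03, -0.32 and 0.13 in SP3-null. Lmo2, which bridges Tal1 and Gata factors, was lower in HE than on either side, at 235, 130 and 228 CPM in WT and 240, 123 and 223 CPM in SP3-null. Mecom, a regulator of arterial cells and of blood stem cells, decreased across the classes from 370 to 235 to 66.9 CPM in WT and from 458 to 210 to 64.0 CPM in SP3-null.

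Of the surface proteins of emerging blood cells, 4 of 9 measured in WT and 4 of 8 in SP3-null were more than 2-fold higher in HE than in pre-HE, and 3 and 2 were lower. The lower genes included Cd34, at -1.32 and -1.29 on the log2 scale, and Cd93, at -1.20 and -1.32, in both libraries, and Ace in WT. Kit, the stem cell factor receptor that marks emerging clusters, was at 24.7 CPM in pre-HE, 106 CPM (87.6 to 127) in HE and 147 CPM in IAC of WT, and at 37.0, 138 (115 to 165) and 165 CPM in SP3-null. The integrin genes Itga4 and Itgb3 and Cd47, an inhibitor of phagocytosis, were also more than 2-fold above pre-HE in both libraries, with log2 ratios of 2.37, 3.40 and 1.35 in WT and 3.34, 3.13 and 1.40 in SP3-null. Cebpb, a factor of myeloid cells, was at 13.0, 219 and 211 CPM across pre-HE, HE and IAC in WT and at 12.3, 218 and 240 CPM in SP3-null, so that it was at its IAC level in HE. Mycn, a growth-promoting MYC family factor, was at 5.86, 131 and 98.4 CPM and at 8.98, 124 and 97.6 CPM. Phgdh, the first enzyme of serine synthesis, was at 3.90, 84.4 and 246 CPM in WT and 5.61, 151 and 267 CPM in SP3-null. Angpt1, which encodes the ligand of the TIE2 receptor, was at 7.81 and 12.3 CPM in pre-HE and 42.7 and 71.5 CPM in HE.

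The losses were broader than the gains and concerned endothelial genes, arterial ones among them. Of the 25 endothelial identity genes, 21 in WT and 25 in SP3-null were more than 2-fold lower in HE than in pre-HE, with medians of -1.39 and -1.59 on the log2 scale. Arterial genes went about as far in WT and further in SP3-null, with 17 of 20 and 18 of 19 more than 2-fold lower. Their medians were -1.46 and -2.14. The loss was not limited to arterial genes. Of venous genes, 3 of 8 in WT and 4 of 6 in SP3-null were more than 2-fold lower, and 2 and 1 were higher. The venous medians were -0.46 and -2.19. Gja5, the arterial connexin 40, was at 618 CPM in pre-HE and 116 CPM (96.5 to 137) in HE in WT and at 572 and 74.8 CPM in SP3-null. Hey2, a Notch target of arterial cells, was at 124 and 14.2 CPM in WT and 136 and 11.2 CPM in SP3-null. Dll4, an arterial Notch ligand, was at 124 and 49.8 CPM in WT and 109 and 24.6 CPM in SP3-null, and Efnb2, the arterial ephrin, at 428 and 185 CPM and at 453 and 156 CPM. Sox17, which holds the arterial state, had log2 ratios of -1.51 and -1.64. In each of these genes HE stood well below pre-HE and well above IAC.

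Genes that answer to blood flow and genes of the vessel's matrix were lower in HE as well. Of 10 flow-responsive genes, 7 were more than 2-fold lower in each library, and they were the same 7 genes, Klf2, Klf4, Nos3, Cav1, Edn1, Thbd and S1pr1. Klf2, the flow-induced factor of quiescent endothelium, was at 491 and 195 CPM in WT pre-HE and HE and 332 and 136 CPM in SP3-null. Cav1, the coat protein of caveolae, was at 147 and 14.2 CPM in WT and 171 and 14.5 CPM in SP3-null. Of 14 basement membrane genes, 11 were more than 2-fold lower in each library, among them Col4a1 and Sparc with log2 ratios of -1.65 and -1.71 in WT and -1.89 and -2.05 in SP3-null. Of 14 BMP and TGF-beta genes in WT 7 were lower, and of 15 in SP3-null 10 were lower. Both included Smad6, an inhibitor of BMP signalling, with log2 ratios of -1.03 in WT, or -0.94 without the 7 cells, and -1.67 in SP3-null. Tmem100, a BMP-induced membrane protein of arterial endothelium, was at 397 and 55.1 CPM in WT and 509 and 63.6 CPM in SP3-null. Vascular guidance genes (plexins, semaphorins, neuropilins) gave 11 lower of 15 and 9 lower of 13, and 0 of them were higher.

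Notch pathway genes were mixed rather than uniformly low. Of 14 measured, 6 were more than 2-fold lower and 1 (Hes5) higher in WT, and 7 lower and 1 (Notch2) higher in SP3-null. Without the 7 cells of low endothelial sum, 7 were lower and 0 higher in WT, while SP3-null kept 7 and 1. The members lower in both libraries were Notch4, Dll4, Jag1 and Hey2. Against IAC, 10 of 14 and 9 of 14 Notch genes were more than 2-fold higher in HE.

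Most genes of cell division had ratios above 1 in HE over pre-HE, but few passed 2-fold. All 22 DNA replication genes measured in WT and all 21 in SP3-null had ratios above 1, with medians of 0.67 and 0.73 on the log2 scale, but only 4 and 6 of them passed 2-fold. For mitosis, 20 of 21 genes in each library were above 1, with medians of 0.47 and 0.79, and 2 and 6 passed 2-fold, or 0 and 6 without the 7 cells. Interferon and inflammatory signalling are both known as inputs to this transition. Of 12 interferon genes measured in WT, Ifitm1 was more than 2-fold higher and 1 was lower, and of 11 in SP3-null, Ifitm1 was higher and 4 (Irf9, Bst2, Ifnar1 and Ifngr1) were lower, or 3 lower without the 7 cells. In WT 10 of the 12 and in SP3-null 10 of the 11 had ratios below 1. Of the inflammatory genes, 0 of 13 and 0 of 8 were higher and 1 was lower in each library.

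HE against IAC addressed which features of a blood cell were not yet present. By the same rule 9.9% of 9783 genes were higher and 6.84% lower in WT HE than in WT IAC, and 11.4% of 9371 genes were higher and 6.59% lower in SP3-null HE. In SP3-null, 1068 genes were higher and 618 lower, but 842 higher and 795 lower with TMM factors, which moved the median of all genes from 0.09 to -0.08. Of 9208 genes measured in both libraries, 599 were higher in both and 310 lower in both.

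Genes for cytoskeletal and signalling proteins of blood cells were lower in HE than in IAC. All 23 genes of that list in WT and 22 of 23 in SP3-null were more than 2-fold lower in HE than in IAC, with medians of -2.33 and -2.65 on the log2 scale, and against pre-HE only 3 of 10 and 3 of 8 measured members were more than 2-fold higher. Rac2, the blood-specific RAC GTPase, had 0 UMIs in WT HE and 1 UMI in SP3-null HE, against 157 and 185 CPM in IAC. Coro1a, an actin regulator of leukocytes, was at 50.7 CPM in WT HE and 53.6 CPM in SP3-null HE, against 314 and 272 CPM in IAC. Blood lineage genes were lower still, with 9 of 9 measured genes in WT and 9 of 10 in SP3-null past 2-fold and medians of -3.74 and -2.73. Mpo, the peroxidase of granulocyte precursors, had 3 UMIs in WT HE and 1 in SP3-null HE, against 81.3 and 74.3 CPM in IAC. Ikzf1, the lymphoid factor Ikaros, was at 6.22 and 7.82 CPM in HE, against 74.0 and 70.3 CPM in IAC. Ifitm1, an interferon-inducible membrane protein, was at 49.8 and 97.1 CPM in HE, against 405 and 556 CPM in IAC.

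What HE kept, relative to IAC, was largely vascular. Of 25 and 24 endothelial identity genes, 22 in WT and 21 in SP3-null were more than 2-fold higher in HE, and of arterial genes 17 of 17 and 15 of 16 were. Edn1, the vasoconstrictor endothelin, was at 134 CPM in WT HE and 84.9 CPM in SP3-null HE and at 2.37 and 0.57 CPM in IAC. Sost, an inhibitor of Wnt signalling, was at 44.4 and 59.2 CPM in HE and at 0.47 and 1.43 CPM in IAC, with pre-HE at 125 and 120 CPM. Regulators of stem cells also stayed above IAC, with 7 of 15 genes in WT and 6 of 15 in SP3-null more than 2-fold higher. Among them were Mecom, Mllt3, Prdm16 and Cdkn1c, the last a brake on the cell cycle, with log2 ratios of 1.81, 1.24, 1.91 and 1.19 in WT and 1.71, 1.62, 1.67 and 1.01 in SP3-null. Genes of blood stem cells thus stood on both sides, since Hlf and Angpt1 were lower in HE than in IAC while Mecom and Mllt3 were higher, the log2 ratios of Hlf being -0.98 in WT and -1.02 in SP3-null, or -0.78 in the latter without the 7 cells.

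**Figure D2:**
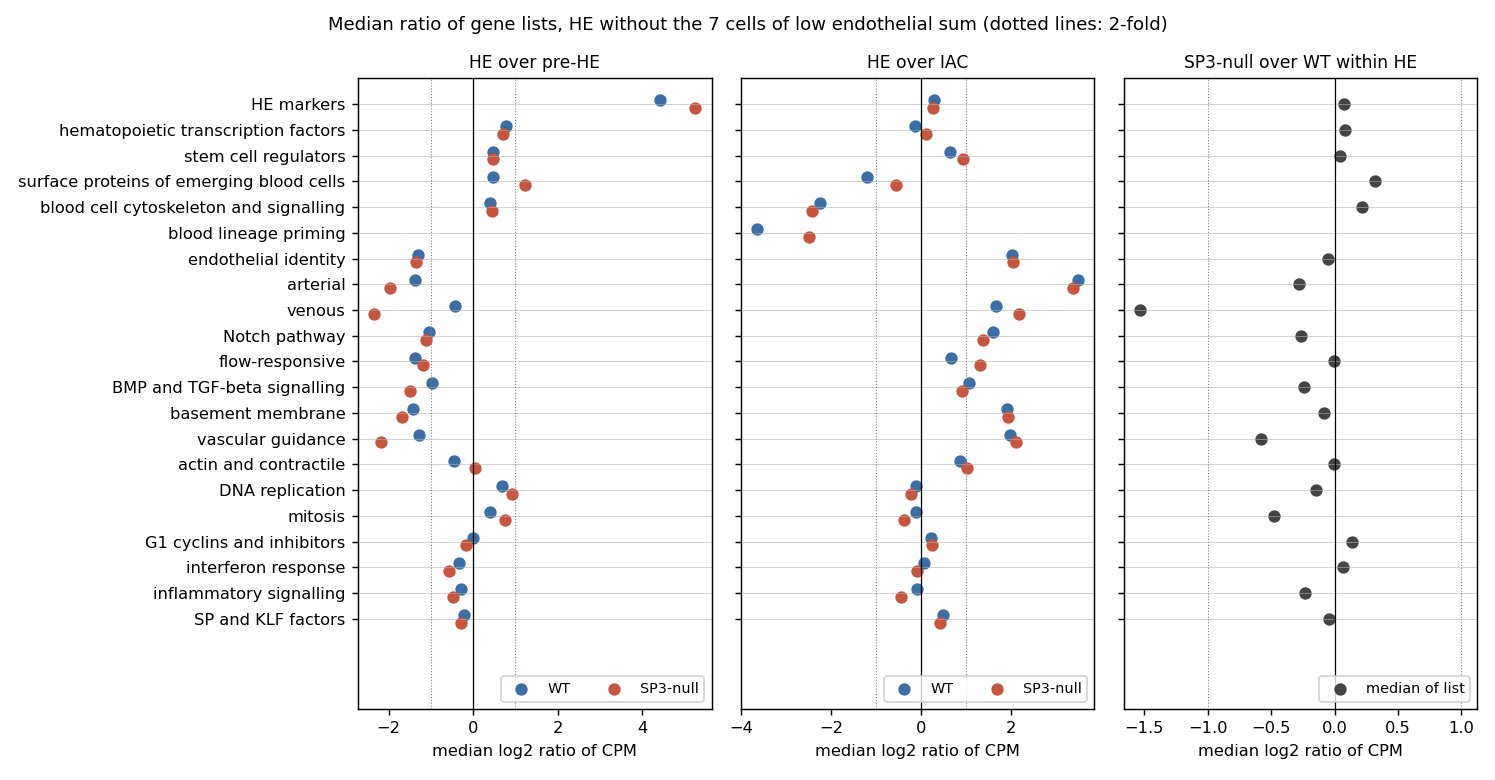
Median log2 ratio of 21 gene lists for HE over pre-HE, HE over IAC and SP3-null over WT within HE, without the 7 HE cells of low endothelial sum; dotted lines mark 2-fold, and blood lineage genes have a point against IAC alone because too few were measured elsewhere. Arterial genes lie at -1.37 and -1.97 against pre-HE and at 3.49 and 3.37 against IAC in WT and SP3-null, blood cytoskeleton genes at 0.40 and 0.45 against pre-HE and at -2.24 and -2.42 against IAC, and the medians of SP3-null over WT run from -1.53 (venous, 7 genes measured) and -0.58 (vascular guidance) to 0.32 (surface proteins).

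The place of HE between its neighbours differed from gene to gene. For the 217 genes at least 4-fold higher in IAC than in pre-HE in both libraries, each gene's HE level was set on a scale from 0 (the pre-HE level) to 1 (the IAC level) in log2 CPM. The median position was 0.48 in WT and 0.54 in SP3-null. Of these genes 36 in WT and 56 in SP3-null lay beyond 0.75, and 25 did so in both libraries, while 78 and 75 lay below 0.25, 60 of them in both. Runx1 (1.05 in WT and 0.96 in SP3-null), Cebpb (1.01 and 0.97), Neurl3 (1.02 and 1.11), Myb (0.86 and 0.88), Spi1 (0.85 and 0.88) and Kit (0.82 and 0.88) lay beyond 0.75 on this log2 scale. A high position is not the IAC level: Myb was still more than 2-fold lower in HE than in IAC in WT. Myb and Spi1 had few UMIs in pre-HE, which stretches their scale. Ptprc (0.09 and 0.16) and Rac2 (0.07 and -0.28) came out at the pre-HE end. Ptprc had 0 UMIs in pre-HE of both libraries and Rac2 had few or none in HE, so these positions rest on the floor. Coro1a (0.38 and 0.66) and Ifitm1 (0.25 and 0.55) lay between. Neither regulators nor products of blood cells took 1 position: the factors Ikzf1 (0.48 and 0.47) and Batf (0.27 and 0.51) lay lower on the scale, and the signalling and surface genes Ptpn6 (0.52 and 0.84), Dock2 (0.50 and 0.79), Was (0.70 and 0.59) and Spn (0.58 and 0.72) lay higher. For the 413 genes at least 4-fold lower in IAC, the median position was 0.39 and 0.43, and 334 and 322 of them lay between 0.25 and 0.75. Cdh5 (0.41 and 0.50), Kdr (0.47 and 0.41) and Gja5 (0.38 and 0.39) were of this kind, and Edn1 (0.24 and 0.23) and Sost (0.19 and 0.16) remained close to pre-HE.

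Some genes were highest in HE itself. Among the 5397 genes with at least 20 UMIs in HE of each library, 22 were more than 2-fold above the higher of pre-HE and IAC in both. That minimum was asked of HE alone, so it favours genes that are high there, and the count is a description. Without the 7 cells of low endothelial sum, 10 of them remained so and 12 did not. The 12 were Sox2, Pou3f2, Elavl3, Elavl4, Tubb3, Nefl, Nefm, Nr2f1, Nr2f2, Ckb, Fgfbp3 and D930028M14Rik, among which are factors, tubulin and filament genes of neurons. The 10 that remained were Gfi1, Nupr1, Wnt4, Gsta4, Tmem158, F10, Runx1t1, Rprm, Zfp462 and Actc1. For Zfp462 arterial classes reached similar levels, with 44.1 CPM in the conflux arterial endothelium of the WT library, and Actc1, the cardiac actin, had UMIs in 3 WT and 7 SP3-null HE cells. Leaving out the 7 cells lowered Zfp462 from 32.0 to 23.7 CPM in WT HE and from 58.1 to 31.5 CPM in SP3-null HE.

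Nupr1, a small stress-induced chromatin protein, was at 9.76 CPM in WT pre-HE, 239 CPM (211 to 269) in HE and 50.8 CPM in IAC, and at 0, 81.5 (63.9 to 102) and 15.2 CPM in SP3-null, with UMIs in 27 of 59 and 14 of 40 HE cells. Wnt4, a secreted Wnt ligand, was at 13.0, 50.7 (38.4 to 65.6) and 2.37 CPM in WT and at 0, 34.6 (23.5 to 49.1) and 1.72 CPM in SP3-null, and had UMIs in 18 and 7 HE cells. Gsta4, a glutathione transferase that detoxifies lipid peroxidation products, was at 33.8, 131 and 24.4 CPM and at 50.5, 108 and 12.9 CPM. Tmem158, a RAS-induced membrane protein, was at 39.7, 108 and 27.3 CPM and at 29.2, 122 and 21.8 CPM. F10, the coagulation factor X, was at 23.4, 49.8 and 14.0 CPM and at 20.2, 41.3 and 10.3 CPM. Runx1t1, the corepressor ETO, was at 3.90, 43.6 and 14.7 CPM and at 8.98, 49.1 and 10.9 CPM. Sfrp2, a secreted Wnt modulator, had its highest level in HE too, at 8.46, 191 and 65.2 CPM in WT and 0, 123 and 62.8 CPM in SP3-null, though its log2 ratio over IAC in SP3-null was 0.97, or 1.03 without the 7 cells.

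HE cells were not alike. Among the 92 cells without a low endothelial sum, the number of the 4 markers with a UMI ran from 0 in 10 WT cells (17.9%) and 7 SP3-null cells (19.4%) to 4 in 20 WT cells (35.7%) and 17 SP3-null cells (47.2%). Cells with 0 markers had a median endothelial sum of 10433 CPM in WT and 9881 CPM in SP3-null and an arterial sum of 4512 and 4138 CPM. Cells with all 4 markers had endothelial sums of 4548 and 3163 CPM and arterial sums of 1045 and 566 CPM. Depth moved with these groups, since median UMIs were 9966 and 9513 in cells with 0 markers and 24892 and 24727 in cells with all 4, and its part in the pattern was not tested. Pre-HE had median endothelial sums of 14848 and 14222 CPM, and IAC of 1613 and 1597 CPM.

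Across the same 56 WT and 36 SP3-null cells, the levels of arterial and endothelial genes moved together, with Spearman correlations of 0.84 and 0.88. Gfi1 moved against the arterial sum, at -0.57 and -0.65, and Runx1 against the endothelial sum, at -0.46 in each library. Runx1 and Gfi1 correlated at 0.45 and 0.39. These are descriptions across cells that share a library, and UMI totals moved with the same measures: the endothelial sum correlated with the cells' UMIs at -0.67 and -0.64 and Gfi1 at 0.46 and 0.61. Gja5 and Gfi1, an arterial gene and a gene of the later stage, had UMIs in the same cell in 28.8% of WT and 27.5% of SP3-null HE cells, against 7.03% of WT IAC cells.

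**Figure D3:**
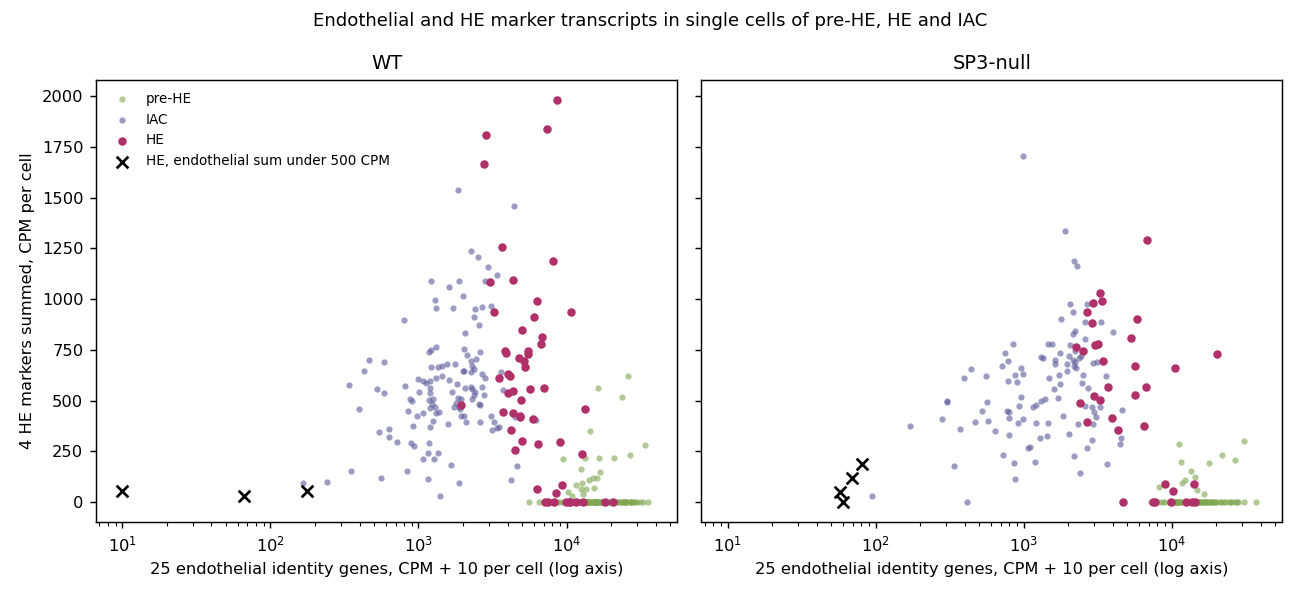
Each cell of pre-HE (green), IAC (lavender) and HE (magenta) by the summed level of 25 endothelial identity genes (x axis, CPM plus 10, log scale) and of the 4 HE markers (y axis, CPM) in the 2 libraries; black crosses are the 7 HE cells of low endothelial sum. Of the other HE cells the lowest endothelial sums are 1914 CPM in WT and 2238 CPM in SP3-null, and HE cells of high marker level lie toward the lower endothelial sums.

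Most Acta2 UMIs of HE lay in a few cells. Acta2, smooth muscle actin, was at 247 CPM (219 to 278) in WT HE and 337 CPM (300 to 377) in SP3-null HE. It had UMIs in 30 of 59 and 17 of 40 HE cells. The 3 cells with the most UMIs of it, however, held 69.9% and 76.7% of all Acta2 UMIs. The cell with the highest Acta2 level had UMIs of 0 of the HE markers in WT and of 1 in SP3-null. Pre-HE was at 232 and 35.9 CPM, and IAC at 32.5 and 27.5 CPM. Tagln, an actin-binding protein of smooth muscle, reached 262 and 239 CPM in HE, against 17.1 and 29.3 CPM in IAC, with UMIs in 24 and 17 HE cells. Against pre-HE, Tagln was more than 2-fold higher in SP3-null HE but not in WT HE.

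Marker genes of most cell types outside the transition were low in HE, apart from the neural genes and some erythroid genes. The neural and neural crest list summed to 402 CPM in WT HE and 385 CPM in SP3-null HE, against 30.8 and 18.9 CPM in IAC. Pre-HE reached 845 and 529 CPM, mostly from Stmn2, a tubulin-binding protein. Of the 11 genes of that list 2 in WT HE and 4 in SP3-null HE were at 0. Macrophage genes summed to 22.2 and 29.0 CPM with 7 and 11 of 12 genes at 0, erythroid genes to 113 and 128 CPM, mesenchymal genes to 12.4 and 24.6 CPM, epithelial and mesonephric genes to 78.2 and 67.0 CPM, and germ cell genes to 1.78 and 6.70 CPM. Megakaryocyte and platelet genes summed to 239 and 221 CPM. Of the erythroid genes, the globin gene Hbb-bt had log2 ratios over pre-HE of 5.70 in WT and 3.36 in SP3-null. Against IAC, 0 of 3 measured erythroid genes passed 2-fold in WT, and 2 were higher and 1 lower in SP3-null. The source of these UMIs was not tested. Lyz2, lysozyme, was among the macrophage genes the only 1 measured against pre-HE, at 17.8 and 29.0 CPM in HE and 0 in pre-HE of both libraries, with UMIs in 11 and 12 HE cells.

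SP3-null HE against WT HE addressed the effect of losing SP3, a ubiquitous GC-box-binding factor of the SP and KLF family, on this class. Sp3 itself was at 56.0 CPM (43.0 to 71.6) in WT HE and 43.5 CPM (31.0 to 59.5) in SP3-null HE, 63 and 39 UMIs in 37 of 59 and 21 of 40 cells, with a log2 ratio of -0.36 (-0.98 to 0.24). The kit reads the 3' end of a transcript, and where the Sp3tm1Sus allele is disrupted relative to those tags is not stated in the labels or methods, so these counts do not check the genotype label. Its relative Sp1 had a log2 ratio of -0.30 (-0.95 to 0.34), Sp4, with 8 and 14 UMIs, of 1.14 (-0.22 to 2.60), and the zinc finger factor Maz of 0.61 (0.14 to 1.09). Of 12 SP and KLF genes measured, 2 (Sp4 and Klf4) were more than 2-fold higher, but only 1 gene was without the 7 cells.

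The share of HE was compared with its neighbouring classes. Of pre-HE and HE cells together, HE made up 30.3% in WT (59 of 195) and 30.3% in SP3-null (40 of 132), a difference of 0.05 percentage points with an interval of -10.3 to 10.7. Of HE and IAC cells, it made up 31.6% and 27.2%, which is -4.34 points (-14.4 to 5.98) between the libraries. Without the 7 cells the shares were 29.2% and 28.1% of pre-HE and HE, and 30.4% and 25.2% of HE and IAC. These shares depend on the sort and on how the study projected the cells.

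Few genes, and 0 of the HE markers, differed by more than 2-fold between the genotypes. Of 7977 genes, 3.41% were more than 2-fold higher and 2.51% lower in SP3-null HE than in WT HE, with a median log2 ratio of 0.02. Of the 4 markers Runx1 came nearest, with a log2 ratio of -0.55 (-0.80 to -0.31), or -0.42 without the 7 cells. Gfi1 was at -0.01 (-0.50 to 0.48), Neurl3 at 0.24 (-0.22 to 0.70) and Adgrg1 at 0.05 (-0.32 to 0.42). Among 21 hematopoietic transcription factors 0 passed 2-fold in either direction, with a median of -0.01, and Myb (0.20), Spi1 (0.20) and Hlf (-0.06) had intervals that included 0. Of 24 endothelial identity genes 0 passed 2-fold, though 21 were below 0 with a median of -0.19, and without the 7 cells that median was -0.05.

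Most arterial and mitosis genes had ratios below 1 in SP3-null HE, but few passed 2-fold. Of 19 arterial genes 15 had ratios below 1, with a median of -0.42 on the log2 scale and -0.28 without the 7 cells. Only Dll4 passed 2-fold lower, at -1.02 (-1.80 to -0.28), which became -0.95 without the 7 cells, while Cxcr4, the receptor for CXCL12, was higher at 1.03 on 8 and 13 UMIs, or 0.47 without the 7 cells. Gja5 was at -0.63 (-1.07 to -0.19). Klf2, a flow-responsive gene outside the arterial list, was at -0.52 (-0.85 to -0.19), and its level was also lower in SP3-null than in WT pre-HE. Of 21 mitosis genes 19 were below 1, with a median of -0.39, or -0.48 without the 7 cells, and 0 passed 2-fold. With 1 library per genotype these offsets have no replicate check.

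Of the 7 venous genes measured, 3 were more than 2-fold lower in SP3-null HE and 0 higher, with a median of -0.12 on the log2 scale. Without the 7 cells, 4 were lower and the median was -1.53. Nrp2, a semaphorin and VEGF coreceptor, was at -1.11 on 19 WT and 7 SP3-null UMIs. Flt4, the VEGF-C receptor of lymphatic and venous endothelium, was at -1.67 (-3.71 to -0.04) on 16 and 4 UMIs. Lyve1, a hyaluronan receptor, was at -2.22 (-3.76 to -0.95) on 35 and 6 UMIs, but 26 of the 35 WT UMIs came from 1 cell and the ratio was -0.52 without the top cell. Nr2f2, the venous transcription factor COUP-TFII, was at -0.03, or -2.02 without the 7 cells. These values rest on few UMIs.

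The largest ratios were taken among the 5210 genes with at least 50 UMIs over both groups and UMIs in at least 10 HE cells. Of the 12 highest in SP3-null, only 5 stayed past 2-fold without the 7 cells. Igfbp5, a binding protein of insulin-like growth factors, was at 17.8 and 138 CPM in WT and SP3-null HE, yet 94 of its 124 SP3-null UMIs lay in 1 cell, and its log2 ratio of 2.96 became 0.39. Igdcc3, at 2.53, became 0.47, and Ckb, the brain creatine kinase, at 1.87, became -0.43. The ones that held were Hspa1a, Cenpv, Acvr2b, Ier3 and Bex2. Hspa1a, the inducible heat shock protein HSP70, was at 14.2 CPM (8.13 to 23.1) in WT HE and 69.2 CPM (53.1 to 88.7) in SP3-null HE, with UMIs in 5 and 10 cells and a log2 ratio of 2.28 (1.47 to 3.18). Its level in IAC was 110 and 87.0 CPM, in the other order. Acvr2b, an activin receptor, was at 20.4 and 65.9 CPM, with UMIs in 15 of 59 and 25 of 40 cells and a ratio of 1.69 (0.97 to 2.45). Cenpv, a centromere protein, was at 11.6 and 44.7 CPM in 6 and 17 cells.

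Of the 12 lowest in SP3-null HE, 11 stayed past 2-fold without the 7 cells. The exception was Cadm1, an adhesion molecule, for which 81 of 91 WT UMIs came from 1 cell. Klk8, a secreted serine protease, was at 43.6 CPM (32.2 to 57.6) in WT HE and 6.70 CPM (2.46 to 14.6) in SP3-null HE, with UMIs in 25 of 59 and 5 of 40 cells and a log2 ratio of -2.70 (-4.22 to -1.48). In the neighbouring classes Klk8 was at 72.9 and 46.0 CPM (pre-HE) and 118 and 82.6 CPM (IAC). Nupr1, the gene that was highest in HE among the 3 classes, was at 239 and 81.5 CPM with a ratio of -1.55 (-1.95 to -1.17). Ezr, which links membrane proteins to actin, was at 45.3 and 14.5 CPM in 30 and 11 cells, with a ratio of -1.64 (-2.65 to -0.74). Enc1, Igsf3, Pcdh17, Isyna1, Exoc3l4, Pimreg, Selenom and Rnh1 completed the set, at -1.86, -1.52, -1.48, -1.39, -1.39, -1.35, -1.34 and -1.30.

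**Figure D4:**
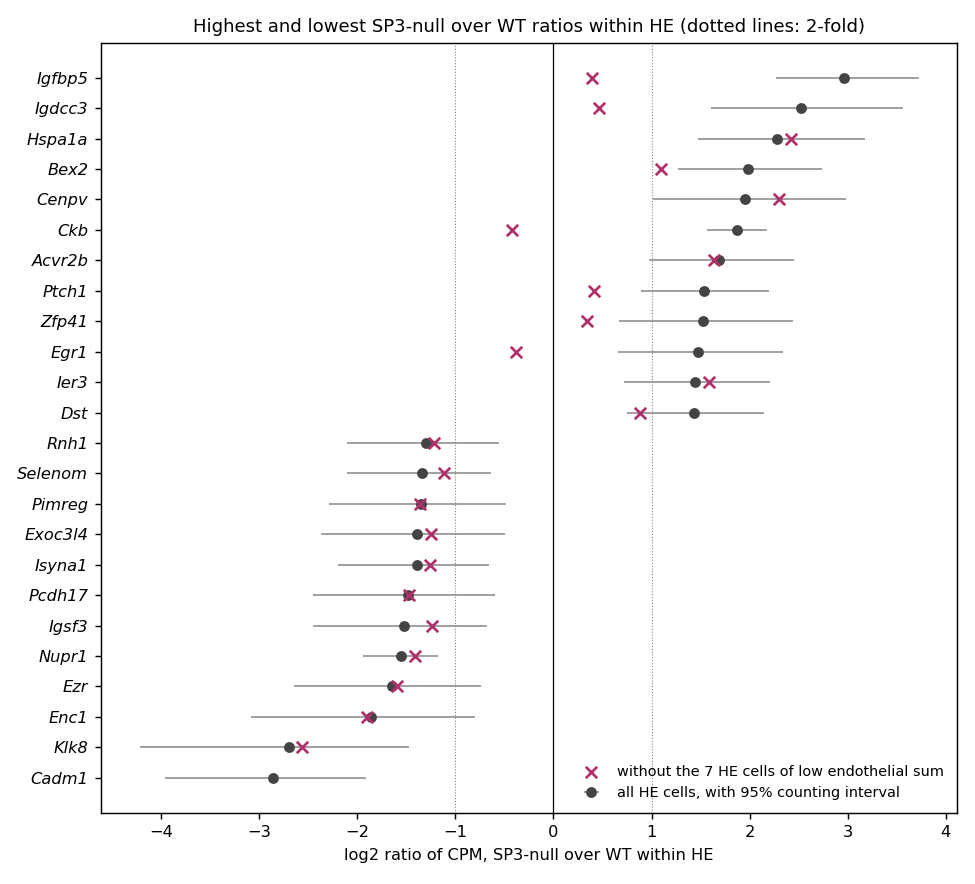
The 12 highest and 12 lowest log2 ratios of CPM, SP3-null over WT, within HE, with 95% counting intervals (grey points and lines) and the same ratio without the 7 HE cells of low endothelial sum (crosses); dotted lines mark 2-fold. Igfbp5 moves from 2.96 to 0.39 and Ckb from 1.87 to -0.43, while Klk8 stays at -2.56 and Nupr1 at -1.41, and Cadm1 has no cross because both groups then held at most 3 UMIs.

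The sex-linked transcripts of the cells labelled HE differed between the libraries. In WT HE 40 cells had UMIs of Xist, the RNA that silences an X chromosome in female cells, and none of Y-linked genes, 13 had only Y-linked UMIs and 6 had neither. In SP3-null HE these counts were 12, 25 and 3, and 0 cells of either library had both. The share of Xist cells among those that could be assigned was 75.5% (61.7% to 86.2%) in WT HE and 32.4% (18.0% to 49.8%) in SP3-null HE. In pre-HE it was 48.6% and 50%, and in IAC 61.2% and 29.3%. In the remaining classes it ran from 43.4% to 56.5% in WT and from 38.4% to 63.5% in SP3-null. The difference within HE is thus not a measure of the sex of the whole pools. The level of Xist was 692 and 308 CPM in WT and SP3-null HE, and the log2 ratio of the Y-linked Ddx3y was 1.33.

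HE was also compared within each sex, as a description that does not separate genotype from sex. Among cells with Xist only, HE made up 43.5% of WT pre-HE and HE cells (40 of 92) and 23.1% of SP3-null ones (12 of 52), a difference of -20.4 points (-35.5 to -3.20). Among cells with Y-linked UMIs only, it made up 19.1% (13 of 68) and 38.5% (25 of 65), a difference of 19.3 points (2.96 to 34.8). The Xist shares of pre-HE were near equal in the libraries (48.6% and 50%), and HE made up 30.3% of pre-HE and HE in both. Both differences thus restate the unequal Xist shares of HE and are not a separate result. As a share of HE and IAC cells, HE differed between the libraries by -9.57 points (-26.1 to 9.25) among Xist cells and by 1.79 points (-14.4 to 16.5) among Y cells, and both intervals include 0. Without the cells of low endothelial sum the differences were -22.9 points (-37.6 to -5.69) and 18.6 points (2.29 to 34.1). The median SP3-null over WT log2 ratio of the endothelial identity genes was -1.03 among Xist cells, with 12 of 24 genes more than 2-fold lower, and -0.15 among Y cells. It was -0.65, with 4 genes lower, and -0.11 without the cells of low endothelial sum, of which 2 were among the 12 SP3-null Xist cells. Arterial genes gave -0.95 among Xist cells and -0.31 among Y cells, and -0.76 and -0.27 without the cells of low endothelial sum. With 12 SP3-null cells of Xist and 13 WT cells of Y, and an unknown number of embryos behind them, these values are given without a test.

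**Figure D5:**
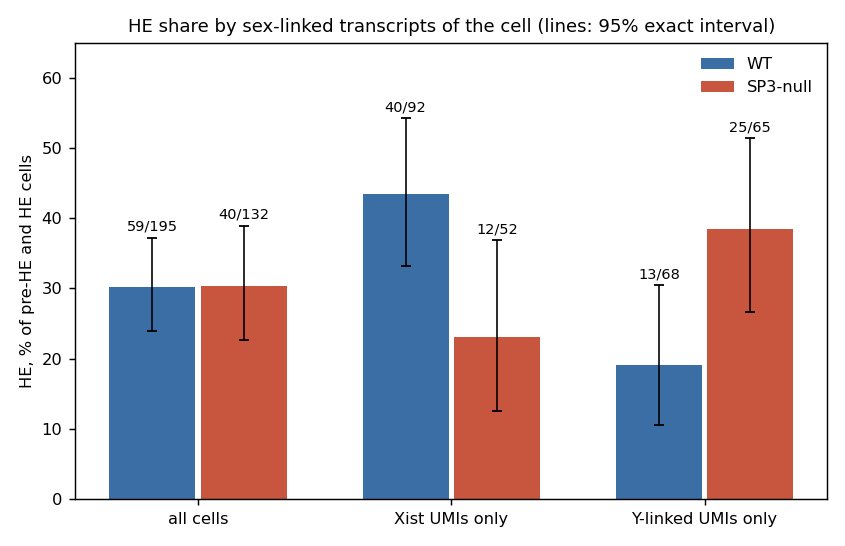
HE as a percentage of pre-HE and HE cells in WT and SP3-null libraries, for all cells, cells with Xist UMIs only and cells with Y-linked UMIs only; lines are 95% exact intervals and the fractions are cells. All cells give 30.3% in each library, while cells with Xist only give 43.5% and 23.1% and cells with Y-linked UMIs only 19.1% and 38.5%. Because Xist shares of pre-HE were near equal in the libraries, the split restates the unequal Xist shares of HE.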

How the data were processed

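Single-cell RNA-seq of 2 libraries, 1 WT and 1 SP3-null, was used as deposited. The authors aligned reads to mm10 (GRCm38) with Cell Ranger (version not given in the sources used here), removed barcodes of few UMIs or genes and contaminants such as erythroid progenitors, and deposited raw UMI counts of 27514 genes in 8405 cells. The mitochondrial share of each cell is a fraction that the authors deposited with the class and library of the cell, and it is given here in percent. The authors set a cell's class by projection on a published UMAP and told arterial from venous cells by a gene score.

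Counts were summed over the cells of a class and library and scaled to counts per 1000000 UMIs (CPM) with Python 3.11.15, numpy 2.4.6, scipy 1.17.1 and pandas 2.3.3. Ratios came with exact conditional Poisson 95% intervals and shares with Clopper-Pearson intervals, and differences of shares with Newcombe's combination of these. Sums over cells without independent embryos allow no test, so none was run. Ratios were read for genes with at least 20 UMIs over both groups, and a group at 0 was set to 3 counts, which makes the ratio a bound. No ratio was formed where both groups held 3 counts or fewer. The positions of HE between pre-HE and IAC, however, kept such genes at the floor.

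The members, the 29 gene lists (416 genes) and the rules were chosen with earlier results of these data known. Named genes were the HE markers, the genes of highest and lowest ratio in both libraries for each comparison, the largest SP3-null over WT ratios, and list members past 2-fold or most abundant. Alternatives were other scalings (edgeR 4.0.16 TMM, DESeq2 1.42.0 size factors, each cell alike), thinning to 5000 UMIs, minimum counts, and subsets of cells. Leaving out HE cells whose endothelial sum was under 500 CPM was chosen after seeing the data, as was doing so within each sex. The scripts were tested on simulated data. Doublet calling was not run here.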

Additional observations from a re-analysis of the deposited data

Results flagged for a closer look

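A few genes passed 2-fold in opposite directions in the 2 libraries, and with 1 library per genotype the difference was not tested. For Igfbp5, the log2 ratio of HE over pre-HE was -1.04 in WT and 3.14 in SP3-null, a difference of 4.17, but 94 of the 124 SP3-null UMIs lay in 1 cell and the SP3-null ratio was 0.59 without the HE cells of low endothelial sum. For Krt10, a keratin gene, the ratio of HE over pre-HE was 1.06 in WT and -1.37 in SP3-null, a difference of -2.43. Against IAC, Fastk differed by 2.24, from -1.22 in WT to 1.02 in SP3-null, which was 0.80 without the HE cells of low endothelial sum. Stxbp4 differed by 2.67, from -1.37 to 1.31, and the latter was 1.06 without those cells.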

How the results depend on the processing

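Counts of genes past 2-fold moved with thinning and the minimum count, which also changed how many genes were measured. As shares of measured genes, WT HE over pre-HE gave 5.54% higher and 12.2% lower when thinned, against 6.31% and 11.2% in the main analysis. SP3-null over WT within HE gave 3.21% and 3.38%, against 3.41% and 2.51%. With a minimum of 50 UMIs these shares were 4.54% and 9.85%, then 1.07% and 0.92%. Given as higher and lower for HE over pre-HE, then for HE over IAC, thinning cells to 5000 UMIs gave 292 and 642, then 458 and 400 in WT, and 278 and 568, then 413 and 347 in SP3-null. A minimum of 50 UMIs gave 282 and 612, then 571 and 381 in WT, and 292 and 521, then 544 and 333 in SP3-null. No minimum beyond 1 UMI gave 968 and 1486 against pre-HE and 1531 higher than IAC in WT, and 1085, 1612 and 1684 in SP3-null. For SP3-null over WT within HE the counts were 113 and 119 when thinned, 56 and 48 with 50 UMIs, and 817 and 634 with no minimum, where the main counts were 272 and 200. There, 165 genes were higher without cells of other-type markers and 151 without the cells of low endothelial sum, and 441 were lower among Xist cells. With TMM factors the 272 and 200 became 229 and 240. Fewer genes tested accounts for part of the smaller counts by construction, and the cause of the rest was not tested.

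The share of HE in WT moved with sex, to 43.5% of pre-HE and HE among Xist cells and 19.1% among Y cells, and to 38.8% and 24.5% of HE and IAC. Reversed ratios were few. For Elavl4 in WT they were -1.38 against pre-HE without cells of other-type markers, and against IAC -2.21 without those cells, -0.58 without the cells of low endothelial sum, -0.54 without the 5% deepest cells and -0.51 without the cell with the most UMIs. For SP3-null over WT they were -0.39 (thinned) and -0.0067 (without other-type markers) for Igdcc3, -2.17 (without other-type markers) and -0.43 (without the cells of low endothelial sum) for Ckb, -0.38 (without the cells of low endothelial sum) and -0.036 (Xist cells) for Egr1, -0.26 for Ier3 and -1.82 for Actc1 among Xist cells, and 0.14 (without the 5% deepest cells) and 0.81 (Xist cells) for Cadm1. Of 2004 ratios of single genes under the alternatives, 1715 stayed within the counting interval, 274 moved beyond it and 15 reversed. No paired analysis was possible because there was 1 library per genotype.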
